A study of Mus musculus with 4 samples.

Results

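The laminin chains, nidogens and perlecan of the mouse carotid artery were followed through wire injury by single-cell RNA-sequencing. The 10 genes, chosen by name, were Lama2, Lama4, Lama5, Lamb1, Lamb2, Lamc1, Lamc3, Nid1, Nid2 and Hspg2, of 31053 genes listed in the files, and each was found once by its symbol. Their identifiers are ENSMUSG00000019899, ENSMUSG00000019846, ENSMUSG00000015647, ENSMUSG00000002900, ENSMUSG00000052911, ENSMUSG00000026478, ENSMUSG00000026840, ENSMUSG00000005397, ENSMUSG00000021806 and ENSMUSG00000028763, in the same order. All 10 had unique molecular identifiers (UMIs, each standing for 1 captured RNA molecule) in the kept cells. Carotid arteries of C57BL/6 mice aged 11 weeks before injury gave 1 library without injury (day 0) and 1 library each from 3, 7 and 14 days after it. Per the study's methods the animals were male, vessels of several animals were pooled for a library and vessels with a visible thrombus were left out. Arteries were digested with enzymes and dead cells removed. The labels name no genotype beyond the strain and no agent besides the injury.

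A basement membrane is a thin sheet of extracellular matrix that lies under endothelium and surrounds each smooth muscle cell of the vessel wall. Its laminins are cross-shaped molecules built from 1 alpha, 1 beta and 1 gamma chain, and the alpha chain largely decides which receptors a laminin binds. Nidogens bind the laminin gamma-1 chain and tie laminin to type IV collagen, and perlecan (Hspg2) is a large heparan sulfate proteoglycan that bridges both networks and holds growth factors. In arteries the alpha-4 and alpha-5 chains are known from the endothelial basement membrane, and the alpha-2 chain is best known from the muscle surface, where dystroglycan and the dystrophin complex link it to the cytoskeleton.

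The 4 libraries held 6161 barcodes, of which 5405 were kept as cells (281 on day 0, 1405 on day 3, 2690 on day 7 and 1029 on day 14). The median cell held 7959, 5458, 6328.5 and 10764 UMIs in that order. Before any result, 217 barcodes were found in more than 1 library. Of these, 152 were shared by days 0 and 3, where the copy with fewer UMIs held a median of 4.39% of the UMIs of its counterpart, and 64 were shared by days 7 and 14, where that share was 1.12%. The copy with fewer UMIs was left out. With the copies kept, 94 of 202 fibroblast-like cells of day 3 and 11 of 23 smooth muscle-like cells of day 0 would have been copies. Cells were clustered without using the 10 genes, and clusters were named from marker genes, so that each name stands for resemblance alone. The classes of the vessel wall were fibroblast-like cells (226, 109, 191 and 514 on days 0, 3, 7 and 14), smooth muscle-like cells (12, 98, 75 and 74) and endothelial-like cells (6, 39, 56 and 18). All 8 fibroblast markers had UMIs in the first class and all 8 smooth muscle markers in the second on each day. All 8 endothelial markers had UMIs in the last from day 3 on, with Kdr and Emcn at 0 on day 0. From day 3 on, all 8 fibroblast markers also had UMIs in smooth muscle-like cells, and all 8 smooth muscle markers in fibroblast-like cells. Such presence does not tell these classes apart, and since clusters were named from marker genes it cannot test the names. Summed levels of the fibroblast and smooth muscle markers in both classes are given below. The fibroblast-like share of cells was 80.4% (75.3% to 84.9%) on day 0, though the artery wall is known to be rich in smooth muscle, and 7.76%, 7.10% and 49.95% later. The day 0 share depends on the naming of clusters, which its interval leaves out. With each library clustered alone 33 cells of day 0 were named fibroblast-like, and without doublet removal 28, in place of 226. Levels are summed UMIs of a class scaled to its total UMIs (CPM) with exact 95% Poisson intervals. A ratio of days carries an exact conditional interval, and a ratio counts as called when it is past 2-fold with at least 20 UMIs over both days. These intervals cover counting error only. With 1 library a day no test of a day is possible, no p-value is given, and a day cannot be told apart from its library.

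Of all named classes, a vessel wall class was highest for each of the 10 genes. Over all days, Lama2 stood at 148 CPM (143 to 154) in fibroblast-like cells, 24.5 (20.8 to 28.8) in smooth muscle-like cells and 0.987 (0.0250 to 5.50) in endothelial-like cells, where it rested on 1 UMI. Lama5, the alpha chain recognised by the receptor Bcam, had another order. It stood at 102 CPM (94.4 to 111) in smooth muscle-like, 83.9 (67.0 to 104) in endothelial-like and 10.7 (9.28 to 12.2) in fibroblast-like cells. The first pair of Lama5 intervals overlapped and the fibroblast-like one lay below both. Lama4 stood at 151 CPM (128 to 177) in endothelial-like, 104 (99.5 to 108) in fibroblast-like and 69.6 (63.2 to 76.6) in smooth muscle-like cells, with no overlap between neighbours over all days. The endothelial-like value rested on day 7 for 123 of 153 UMIs, and on day 3 the endothelial-like and fibroblast-like intervals overlapped (80.8 to 184 and 83.8 to 102). It also rested on few cells, which its interval leaves out: 5 cells gave 57.7% of the 123 UMIs of day 7. On day 3 all 25 UMIs came from 2 of 39 cells. The order was not that of every day: on day 0 smooth muscle-like cells were at 241 CPM (154 to 359), on 24 UMIs, above fibroblast-like cells at 50.9 (42.0 to 61.2), and on day 14 the endothelial-like interval (22.8 to 214, on 4 UMIs) held both other levels. Each of these alpha chains was thus highest in a different class, though for Lama5 the first place was shared and these levels are pooled over days.

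The beta and gamma chains divided the classes as well. Lamb1 was highest in fibroblast-like cells, at 94.9 CPM (90.7 to 99.3), and lower in endothelial-like (40.5, 29.0 to 54.9) and smooth muscle-like cells (25.7, 21.8 to 30.0), whose intervals overlapped narrowly. Of the 41 endothelial-like UMIs of Lamb1, 40 came from day 7, when endothelial-like and smooth muscle-like cells were level (53.3 and 56.9 CPM), and on day 3 it had 0 UMIs in endothelial-like cells against 17.4 CPM. Lamb2 was highest in smooth muscle-like cells, at 318 CPM (304 to 332), followed by fibroblast-like (251, 244 to 258) and endothelial-like cells (127, 106 to 151). Lamc1, the gamma chain shared by most laminins, differed least, with 215 CPM (188 to 246) in endothelial-like, 208 (201 to 214) in fibroblast-like and 165 (155 to 176) in smooth muscle-like cells, the first pair overlapping. Lamc3, the rarer gamma chain, stood at 46.4 CPM (43.5 to 49.4) in fibroblast-like cells, 16.2 (13.2 to 19.7) in smooth muscle-like cells and at 0 UMIs in endothelial-like cells, which allows up to 2.96 CPM (3 UMIs). This order of Lamc3 came from days 0 and 3, since fibroblast-like and smooth muscle-like cells were level on day 7 (14.0 and 14.9 CPM) and the latter were higher on day 14 (49.1, 37.7 to 62.8, against 29.0, 25.6 to 32.8).

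The linkers between the networks differed between classes too. Nid1 was highest in fibroblast-like cells, at 505 CPM (495 to 515), against 278 (247 to 313) in endothelial-like and 78.8 (71.9 to 86.1) in smooth muscle-like cells. Nid2 was low throughout, at 17.3 CPM (15.5 to 19.2), 11.8 (6.12 to 20.7) and 7.52 (5.50 to 10.0) in fibroblast-like, endothelial-like and smooth muscle-like cells, and the endothelial-like interval overlapped both others. Hspg2 was lowest where Nid1 was highest, with 697 CPM (646 to 750) in endothelial-like, 580 (562 to 600) in smooth muscle-like and 279 (272 to 287) in fibroblast-like cells. By day, Hspg2 was level in endothelial-like and smooth muscle-like cells on day 3 (609 and 610 CPM). On day 7 it was higher in endothelial-like cells (764, 702 to 829, against 625, 588 to 663). On day 14 it was lower there (229.9, 114.8 to 411.3, on 11 UMIs, against 471, 434 to 510). That day, 1 cell gave 42.3% of the endothelial-like UMIs, and the 12 monocyte/macrophage markers summed to 4409 CPM in that class. The Nid1 intervals of fibroblast-like and endothelial-like cells overlapped on days 0, 3 and 7, with 1 endothelial-like UMI on day 0. On day 14 they were apart, at 742 CPM (724 to 760) against 83.6 (22.8 to 214, on 4 UMIs).

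**Figure D1:**
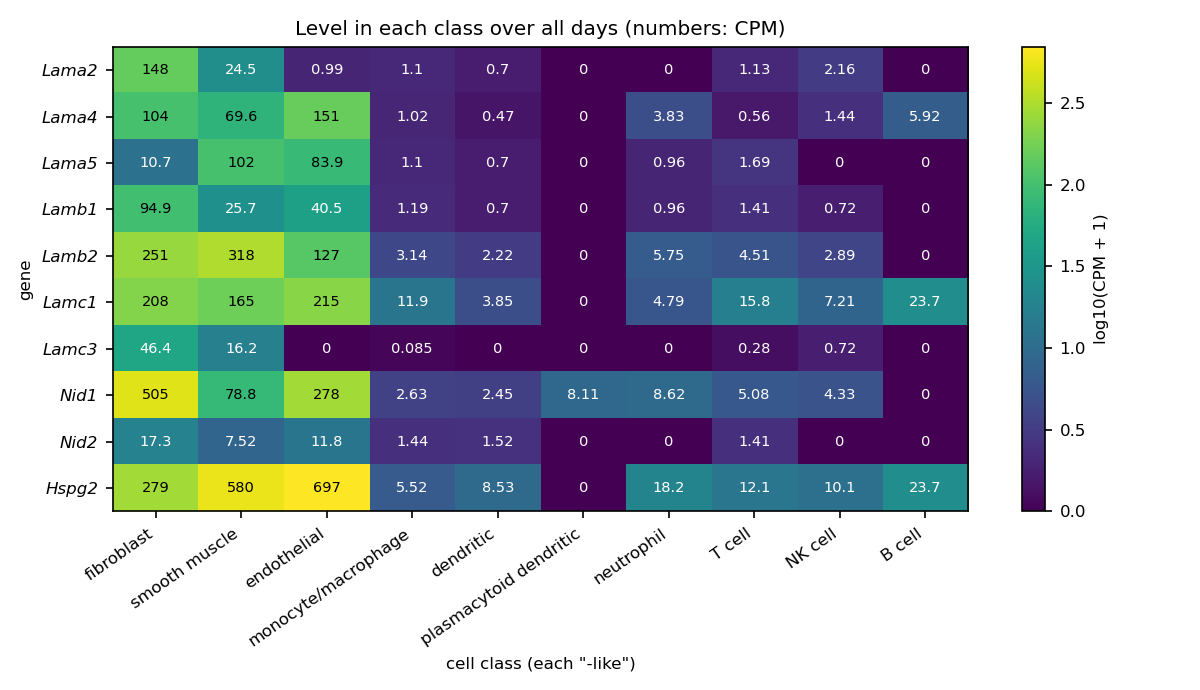
Level of each gene (rows) in each named cell class (columns) over all days, with the colour on a log10(CPM + 1) scale and the CPM printed in each field. The highest level of each gene is in 1 of the 3 vessel wall classes, and Lama2 and Lamc3 are at or near 0 in endothelial-like cells.

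In the immune classes the levels were low, and of the 10 genes Lamc1 had the most UMIs in monocyte/macrophage-like and T cell-like cells. Free RNA was gauged by Col3a1, a collagen that leukocytes should lack, found in these classes at 0.353% to 2.40% of its fibroblast-like level of the same day. Lamc1 in monocyte/macrophage-like cells stood at 14.7, 11.6 and 8.71 CPM on days 3, 7 and 14, or 6.84%, 5.31% and 4.09% of the fibroblast-like level, where Col3a1 gave 0.353%, 0.789% and 0.755%. In T cell-like cells of day 7 Lamc1 was at 16.2 CPM (39 UMIs), or 7.38% against 1.26% for Col3a1. Nid2, low in fibroblast-like cells too, stood in monocyte/macrophage-like cells at 15.6%, 7.51% and 6.02% of its fibroblast-like level on these days, on 3, 11 and 2 UMIs. Nid1 in monocyte/macrophage-like cells was at 0.791%, 0.852% and 0.196% on these days, and Lama2 at 0%, 1.04% and 1.26%. Hspg2 in neutrophil-like cells of day 7 was at 7.40%, on 10 UMIs, where Col3a1 gave 2.40%.

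In fibroblast-like cells the changes over time differed from chain to chain. On day 3 the alpha-2, beta-2 and gamma-3 chains were lower than on day 0, whereas perlecan and the alpha-5 chain were higher. Of the 10 genes, 2 were higher and 3 lower by at least 2-fold, where 9.15% of 10732 genes tested were higher and 10.8% lower. The median log2 ratio of the 10 genes was 0.27, beside -0.11 over all genes tested, and it covers changes in both directions. The median was not stable: it fell to -0.83 with each library clustered alone and to -0.87 without doublet removal, settings that left 33 and 28 fibroblast-like cells on day 0. The 12 monocyte/macrophage markers summed to 118, 407, 260 and 296 CPM in fibroblast-like cells over the days, with 7 of them at 0 on day 0. The 8 smooth muscle markers summed to 490, 396, 1231 and 497 CPM there, highest on day 7, and the 8 fibroblast markers to 39724, 24181, 32255 and 44696 CPM, lowest on day 3. The 7 pericyte markers summed to 894.6, 739.2, 876 and 587.1 CPM in fibroblast-like cells. In smooth muscle-like cells they summed to 723.1, 392.4, 485.5 and 749.2 CPM. The part of these in the changes was not tested.

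Lamc3 was the lowest of the 10 genes relative to day 0 on each later day. It stood at 249 CPM (228 to 270, 552 UMIs) on day 0 and at 15.0 (11.6 to 19.1), 14.0 (10.9 to 17.8) and 29.0 (25.6 to 32.8) on days 3, 7 and 14. Day 0 was high and the later 3 days were low, with no overlap. Against day 0, the ratio was 0.0604 (0.0460 to 0.0782) on day 3, 0.0564 (0.0433 to 0.0726) on day 7 and 0.117 (0.1004 to 0.136) on day 14. Without the Saa3-led and Spp1-led sub-clusters described below, which leaves 17 cells of day 3, the log2 ratio of that day was -0.22 in place of -4.05. Among cells thinned to 1000 UMIs, 20.7% (15.4% to 26.8%) held a Lamc3 UMI on day 0 and 1.85%, 2.72% and 2.22% later, beside 48.2% and 16.5%, 5.76% and 8.56% without thinning. In monocyte/macrophage-like cells, which should lack it, 0.0932% of 1073 thinned cells held one over all days. The median depth was 9725.5 UMIs there and 8531.5, 34613, 21565 and 18245.5 UMIs in the fibroblast-like cells of the 4 days.

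Lama2 was at 278 CPM (257 to 301) on day 0 and at 63.1 (55.8 to 71.0), 120 (111 to 130) and 173 (165 to 182) on days 3, 7 and 14. It was lowest on day 3 and each later day lay above the one before it, with day 14 still below day 0. Relative to day 0 it stood at 0.227 (0.196 to 0.262) on day 3, 0.432 (0.385 to 0.484) on day 7 and 0.622 (0.566 to 0.684) on day 14. Lamb2 followed the same course, with 404 CPM (378 to 431), 151 (140 to 163), 220 (207 to 233) and 279 (268 to 290), and its ratio on day 3 was 0.374 (0.337 to 0.414). The 4 intervals of Lamb2 did not overlap either. The log2 ratio of Lamb2 on day 3, -1.42, became -0.26 without the Saa3-led and Spp1-led sub-clusters and -0.39 without cells of over 30000 UMIs, and that of Lama2 on day 7, -1.21, became -0.60 in the latter setting.

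Lama5 and Hspg2 moved the other way. Lama5 had 0 UMIs on day 0, which allows up to 1.35 CPM (3 UMIs), and 5.31 (3.37 to 7.97), 22.0 (18.0 to 26.5) and 9.64 CPM (7.71 to 11.9) on days 3, 7 and 14. Against that floor it was at least 3.93-fold, 16.3-fold and 7.14-fold higher, and the exact lower limits of these ratios, which include counting error, were 2.95, 12.99 and 5.68. Its day 3 value rested on 23 UMIs in 14 of 109 cells, and with each library clustered alone its log2 ratio was -0.35 in place of 1.98. On day 14 the log2 ratio of 2.84 became 0.63 in that setting and 0.34 without doublet removal, inside 2-fold. Hspg2 was at 149 CPM (134 to 166), 317 (300 to 334), 365 (348 to 382) and 247 (236 to 257), which is 2.12 (1.88 to 2.40), 2.45 (2.17 to 2.76) and 1.66 (1.47 to 1.86) times day 0. Hspg2 peaked on day 7, and all 3 later days lay above day 0.

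**Figure D2:**
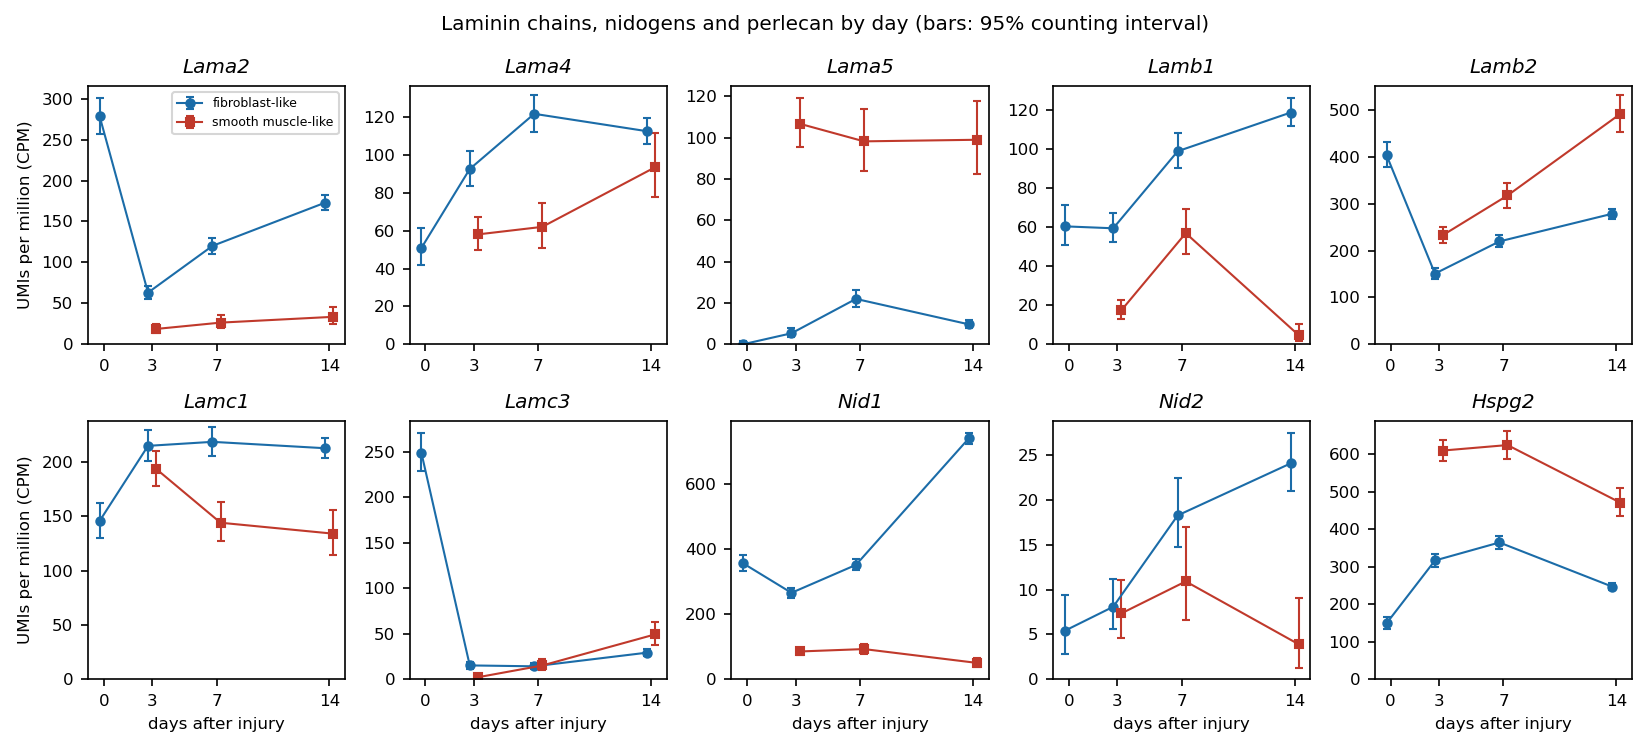
CPM of each gene by day after injury, in fibroblast-like cells (circles) and smooth muscle-like cells (squares, days 3 to 14, since day 0 held 12 such cells), with 95% counting intervals and each axis starting at 0. In fibroblast-like cells Lamc3 falls from 249 CPM on day 0 to 15.0 on day 3, and in smooth muscle-like cells it climbs from 2.00 to 49.1 CPM between days 3 and 14.

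The promoters of the 4 genes past 2-fold on day 3 that had a sequence in the RefSeq table (GRCm38.p6) are shown, since they pair the lower genes, Lama2 and Lamb2, with the higher ones, Lama5 and Hspg2. Each is the 250 bases before the start of the gene on the strand of the gene, at chr10:27616943-27617192 (minus strand), chr9:108479612-108479861 (plus), chr2:180225860-180226109 (minus) and chr4:137468553-137468802 (plus). Capitals mark any match, on either strand, to the letters of a TATA box (written TATAAA), of a CCAAT box (written as its name), of a GC box (written GGGCGG), of an AP-1 motif (written TGANTCA), of a SMAD motif (written CAGACA) or of a TEAD motif (written GGAATG), none of which overlapped another here.
Lama2: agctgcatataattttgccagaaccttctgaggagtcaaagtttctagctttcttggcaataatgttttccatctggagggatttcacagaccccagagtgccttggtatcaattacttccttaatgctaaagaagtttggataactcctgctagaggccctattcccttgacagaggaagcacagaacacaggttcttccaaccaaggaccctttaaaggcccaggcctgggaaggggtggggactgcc
Lamb2: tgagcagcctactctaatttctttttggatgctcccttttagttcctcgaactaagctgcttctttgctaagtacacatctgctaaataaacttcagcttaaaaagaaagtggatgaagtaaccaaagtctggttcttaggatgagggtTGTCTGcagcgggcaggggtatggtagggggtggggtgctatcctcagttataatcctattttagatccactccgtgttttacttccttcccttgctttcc
Lama5: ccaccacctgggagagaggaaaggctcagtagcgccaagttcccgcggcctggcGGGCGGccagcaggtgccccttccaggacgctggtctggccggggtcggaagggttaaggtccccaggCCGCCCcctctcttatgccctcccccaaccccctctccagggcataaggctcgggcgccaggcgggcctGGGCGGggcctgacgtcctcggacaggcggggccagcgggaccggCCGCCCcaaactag
Hspg2: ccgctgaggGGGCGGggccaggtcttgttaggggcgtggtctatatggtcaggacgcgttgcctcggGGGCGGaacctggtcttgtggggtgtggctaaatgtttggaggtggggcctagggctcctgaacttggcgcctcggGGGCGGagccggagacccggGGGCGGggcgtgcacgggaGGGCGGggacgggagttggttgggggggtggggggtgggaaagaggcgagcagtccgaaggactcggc
The stretches of Lama2 and Lamb2 held 47.2% and 43.6% G and C and no GC box. Those of Lama5 and Hspg2 held 72.4% and 70.0% G and C with 4 and 5 GC boxes, where 32.7% of 32851 promoters of that length held at least 1 and the median G and C content was 52.4%. Lamb2 had 1 match to CAGACA, found in 17.1% of promoters. None of the 4 held TGANTCA, found in 6.75%. Of the 10 genes, 6 had an entry, and the stretches of Lamb1 and Nid1 held 62.0% and 64.4% G and C with 2 and 1 GC boxes. Lama4, Lamc1, Lamc3 and Nid2 had none. A match describes the letters of this window alone.

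The nidogens reached their highest levels on day 14 and Lama4 on day 7. On day 7, 4 of the 10 genes were higher and 2 lower than on day 0, where 10.6% of 11036 genes tested were higher and 8.22% lower, and the median log2 ratio was 0.65 beside -0.03 over all genes. On day 14, 4 were higher and 1 was lower, where 9.12% of 11643 genes were higher and 4.63% lower, with a median of 0.85 beside -0.02. With each library clustered alone these medians became -0.39 and 0.33, and without doublet removal -0.28 and 0.16.

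Nid1 was at 357 CPM (332 to 382) on day 0, 266 (251 to 282) on day 3, 352 (336 to 369) on day 7 and 742 (724 to 760) on day 14. Days 0 and 7 overlapped, day 3 lay below them and day 14 above all others, at 2.08 times day 0 (1.93 to 2.24). The log2 ratio of 1.06 became 0.16 without doublet removal and 0.36 with each library clustered alone. Nid2 was at 5.41 CPM (2.79 to 9.44), 8.09 (5.63 to 11.2), 18.3 (14.7 to 22.5) and 24.1 (21.0 to 27.6), where days 0 and 3 overlapped, as did days 7 and 14. Its ratios to day 0 on days 7 and 14 were 3.39 (1.85 to 6.80) and 4.46 (2.50 to 8.77), from 12 UMIs on day 0.

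Lama4 was at 50.9 CPM (42.0 to 61.2), 92.6 (83.8 to 102), 122 (112 to 132) and 113 (106 to 120), so that day 0 was lowest and days 7 and 14 overlapped. Its ratios on days 7 and 14 were 2.39 (1.95 to 2.95) and 2.21 (1.82 to 2.71). On the log2 scale these are 1.26 and 1.15, and they became 0.10 and 0.33 without doublet removal and 0.23 and 0.51 with each library clustered alone. Lamb1 was at 60.4 CPM (50.6 to 71.5) and at 59.4 (52.3 to 67.1) on days 0 and 3, then at 98.8 (90.2 to 108) and 119 (112 to 126), and its day 14 ratio of 1.97 (1.64 to 2.37) stayed just inside 2-fold. Lamc1 was at 146 CPM (130 to 163) on day 0 and between 213 and 219 CPM on the other days, whose intervals overlapped. Of the 10 genes it changed least across the days after injury.

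Between days 7 and 14, 2 genes were higher, Nid1 at 2.11 times (2.00 to 2.22) and Lamc3 at 2.07 times (1.58 to 2.74), and Lama5 was lower at 0.439 times (0.327 to 0.588). Of 11965 genes tested 6.58% were higher and 5.18% lower, and the median log2 ratio of the 10 genes was 0.30. The direction of Nid1 was kept under all 14 alternatives, where its log2 ratio lay between 0.95 and 1.72. Within the sub-clusters described below that span both days, Nid1 was at 1.89 times (1.67 to 2.15) in N0, 0.949 times (0.851 to 1.06) in N1 and 0.593 times (0.398 to 0.902) in N2, so that the class ratio did not hold in each of them. Lamc3 and Lama5 turned over under some of them: without cells of over 30000 UMIs the log2 ratio of Lamc3 was -0.05.

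The make-up of the laminin chains changed with these levels. Shares of UMIs among chains of a type are compared between days and classes, since capture differs between genes, and count the chains among the 10 genes alone. Among alpha chain UMIs of fibroblast-like cells, Lama2 held 84.5% (81.7% to 87.1%) on day 0 and 39.2% (35.5% to 42.9%), 45.5% (42.8% to 48.3%) and 58.6% (56.7% to 60.5%) on days 3, 7 and 14. Lama4 held 15.5%, 57.5%, 46.2% and 38.1%, highest on day 3, when Lama2 was lowest. Among gamma chain UMIs Lamc3 held 63.0% (59.7% to 66.2%) on day 0 and 6.53%, 6.03% and 12.0% later. Among beta chain UMIs Lamb1 went from 13.0% (11.0% to 15.2%) to 28.2%, 31.0% and 29.9%.

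In smooth muscle-like cells Lama5 held 58.2% (53.9% to 62.3%), 52.6% (47.0% to 58.2%) and 43.8% of alpha chain UMIs on days 3, 7 and 14. Lamb2 held at least 84.8% of beta chain UMIs there on each of those days. In endothelial-like cells of day 7, Lama4 held 65.1% (57.8% to 71.9%) of alpha chain UMIs and Lama5 the remaining 34.9%, and all 153 gamma chain UMIs were of Lamc1.

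**Figure D3:**
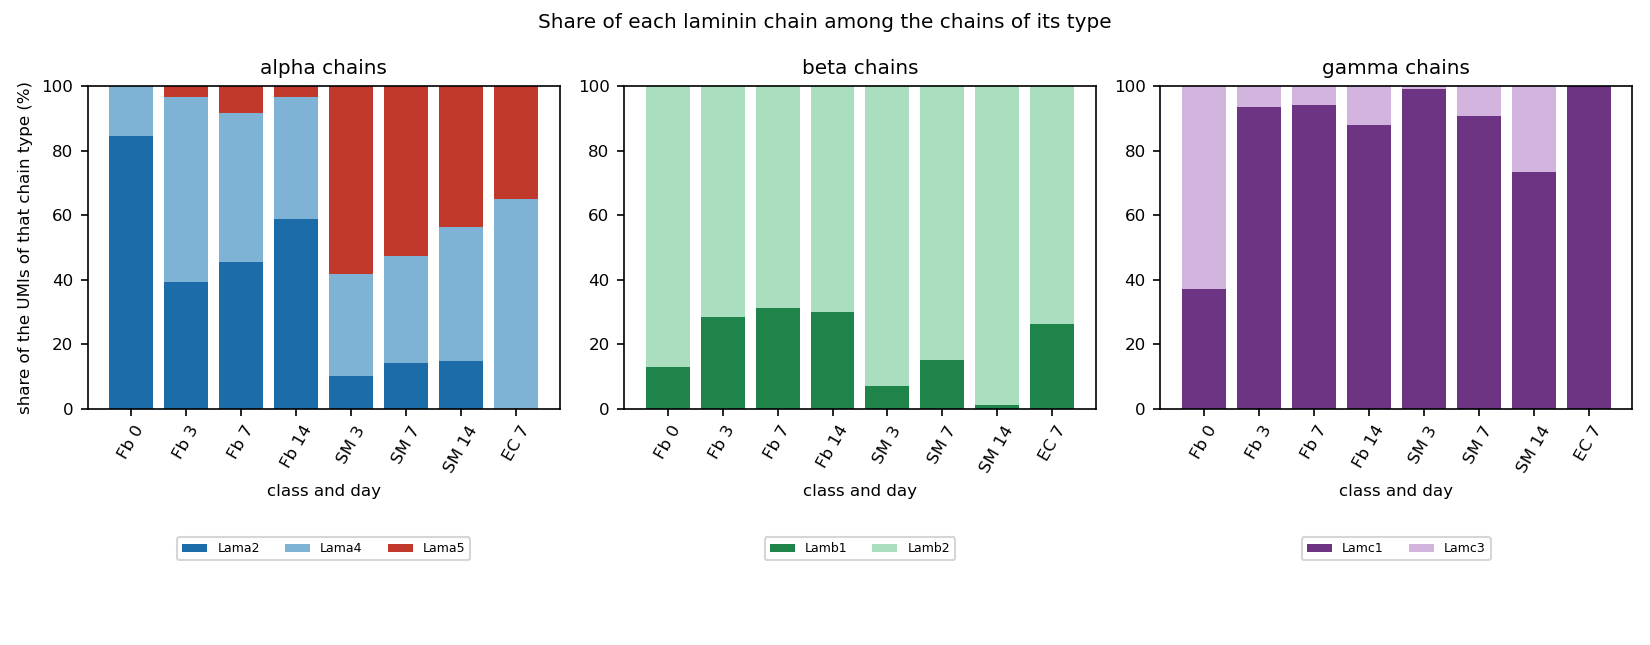
Share of each laminin chain (percent of the UMIs of its chain type among the 10 genes) by class and day, for fibroblast-like (Fb), smooth muscle-like (SM) and endothelial-like (EC) cells. In fibroblast-like cells Lama2 and Lamc3 hold their highest shares on day 0, at 84.5% and 63.0%.

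Chains were also looked for together in single cells, each thinned to 5000 UMIs. Lama2, Lamb2 and Lamc1 were seen together in 31.1% (23.9% to 39.2%) of 151 fibroblast-like cells of day 0, 10.3% (4.84% to 18.7%) of 87 of day 3, 21.2% (14.9% to 28.8%) of 146 of day 7 and 27.4% (23.2% to 31.9%) of 427 of day 14. Lama2 with Lamb1 and Lamc1 went from 5.96% (2.76% to 11.0%) on day 0 to 15.7% (12.4% to 19.5%) on day 14. Lama5, Lamb2 and Lamc1 were seen together in 17.8% (12.7% to 24.0%) of 191 smooth muscle-like cells and in 2.10% (1.23% to 3.34%) of 811 fibroblast-like cells. Lama4, Lamb2 and Lamc1 were seen together in 15.2% (10.4% to 21.1%) of the smooth muscle-like cells, an overlapping share. Joint presence in a cell says nothing of assembled protein, and 229 fibroblast-like cells were too shallow to be counted.

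Fibroblast-like cells were not one population, and the days drew on different parts of them. Cells of the vessel wall were clustered again into 9 sub-clusters, N0 to N8. On day 0, 69.4% of the fibroblast-like UMIs came from N3, led by AI507597, Lamc3 and Rbp4. A further 18.0% came from N7, led by Igfbp5, Sema3c, Pcsk6, Dpp4 and Pi16. On day 3, 89.0% came from N6, led by the inflammatory genes Saa3, Ccl7 and Cxcl5. On day 7 N1 (led by Rgs5 and Eln) gave 43.2% and N6 28.1%, and on day 14 N0 (led by C1qtnf3 and Cilp) gave 52.3% and N1 24.5%. The class ratios above therefore compare days with unlike make-up, and the part of this in them was not separated except where a sub-cluster spanned several days.

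Across the sub-clusters Lamc3 was highest in N3, at 295 CPM (274 to 318), followed by N1 at 40.0 CPM (34.4 to 46.4), and had 0 UMIs in N0, which held 249 cells, and in N7, which held 76. N3 was also highest for Lama2, at 283 CPM (262 to 306), and for Lamb2, at 457 (430 to 485), level with N4 at 453 (430 to 476). N7 was highest for Nid1, at 1897 CPM (1829 to 1966), for Lamc1, at 424 (393 to 458), for Lamb1, at 322 (294 to 351), and for Lama4, at 273 (248 to 301). The cells of N7 thus held the highest levels of these 4 genes and no Lamc3 UMI. Among its leading genes, after Igfbp5, Sema3c and Pcsk6, were Dpp4 and Pi16, known as markers of adventitial fibroblasts. Nid2 was highest in N0, at 30.9 CPM, with most of its cells from day 14, while on day 7 it was at 9.59 CPM (3.86 to 19.8) in N0 and 36.1 (26.8 to 47.5) in N6. Lama5 was highest among the fibroblast-like sub-clusters in N1, at 30.3 CPM.

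**Figure D4:**
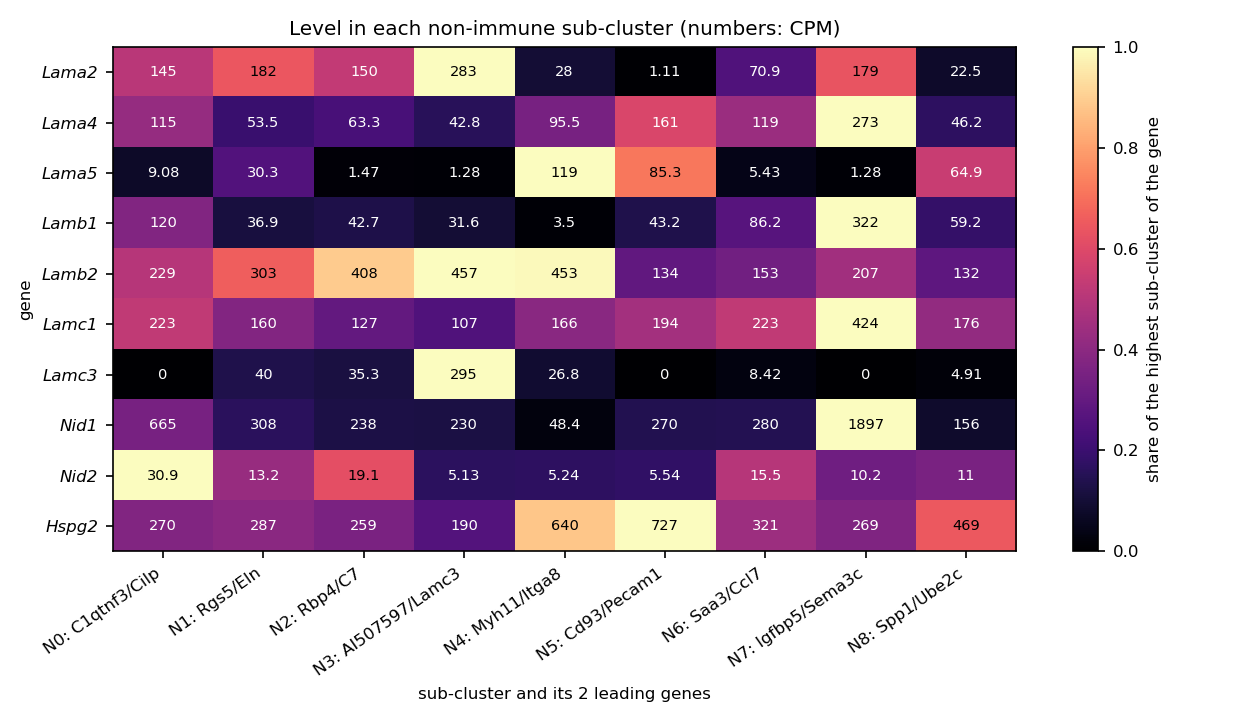
Level of each gene (rows) in each vessel wall sub-cluster (columns, with 2 leading genes), coloured by the share of the highest sub-cluster of that gene and printed as CPM. Lamc3 is highest in N3, at 295 CPM, and the highest Nid1, Lamc1, Lamb1 and Lama4 in N7.

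Within a sub-cluster several changes were smaller and others as large. In N3, with 120 cells of day 0 and 44 of day 14, Lamc3 was at 338 CPM on day 0 and 214 on day 14, a ratio of 0.631 (0.521 to 0.760) in place of 0.117 for the class. In N2, a sub-cluster of shallow cells led by Rbp4 and C7, Lamc3 was at 125 CPM on day 0, from 24 UMIs, and at 0 on days 7 and 14. Lama2 in N3 was at 312 and 245 CPM, a ratio of 0.785 (0.654 to 0.939), and Lamb2 at 450 and 469 CPM, a ratio of 1.04 (0.908 to 1.19). Lama4 in N3 was at 31.2 and 72.7 CPM, a ratio of 2.33 (1.53 to 3.55), close to that of the class. In N2 Lama4 was at 47.02 CPM (21.5 to 89.3) on day 0 and 54.15 (33.1 to 83.6) on day 14, with overlap.

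In N7, with 24 and 46 cells of these days, Nid1 was at 980 and 2479 CPM, a ratio of 2.53 (2.27 to 2.82). Hspg2 in N7 was at 95.01 and 323 CPM, a ratio of 3.40 (2.42 to 4.89), Lama4 at 138 and 309 CPM, a ratio of 2.25 (1.68 to 3.05), and Lamb1 at 190 and 369 CPM, a ratio of 1.94 (1.51 to 2.52). All 4 were higher on day 14. In the larger N3, Nid1 was at 220.2 and 262.5 CPM, a ratio of 1.19 (0.988 to 1.43). Hspg2 there was at 161 and 215 CPM, a ratio of 1.33 (1.08 to 1.65), and Lamb1 at 30.5 and 35.6 CPM, a ratio of 1.17 (0.682 to 1.95). Lama4 in N3, at 31.2 and 72.7 CPM, was higher on day 14 as it was in N7. In N2 the ratios were 1.31 (0.872 to 2.01) for Nid1, 1.42 (0.932 to 2.22) for Hspg2 and 0.415 (0.142 to 1.17) for Lamb1, each with an interval that held 1. In N6, with 87 cells of day 3 and 39 of day 7, Lamb1 was at 58.2 and 170 CPM, a ratio of 2.91 (2.42 to 3.52), and Nid2 at 8.57 and 36.1 CPM, a ratio of 4.21 (2.66 to 6.74).

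Smooth muscle-like cells were compared between days 3, 7 and 14. From day 3 to day 14 Lamc3 and Lamb2 were higher by at least 2-fold and Lamb1 was lower, where 6.22% of 10142 genes tested were higher and 10.6% lower. The median log2 ratio of the 10 genes was -0.24 beside -0.06 over all genes, and it changed sign, to 0.29, when the cycling sub-cluster N8 was left out. From day 3 to day 7 Lamc3 and Lamb1 were higher and none lower, where 4.82% of 10434 genes were higher and 2.96% lower. N8, led by Spp1 and cell cycle genes such as Top2a, gave 49.2% and 61.6% of the smooth muscle-like UMIs of days 3 and 7, whereas on day 14 N4, led by Myh11 and Cnn1, gave 97.1%. The 8 smooth muscle markers summed to 20502, 14583 and 40437 CPM on days 3, 7 and 14 and the 8 fibroblast markers to 4261, 9242 and 4052 CPM, and their part in the changes was not tested.

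Lamc3 was at 2.00 CPM (0.735 to 4.36, 6 UMIs), 14.9 (9.76 to 21.9) and 49.1 (37.7 to 62.8, 63 UMIs) on days 3, 7 and 14, with no overlap. Day 14 was 24.5 times day 3 (10.7 to 69.4). Within N4 alone Lamc3 was at 3.44, 34.8 and 48.7 CPM, so that day 14 was 14.1 times day 3 (5.74 to 45.1). The 63 UMIs of day 14 came from 24 of 74 cells.

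Lamb2 was at 233 CPM (216 to 251), 318 (292 to 345) and 492 (454 to 532), at 2.11 times (1.89 to 2.35) on day 14. Within N4 it was at 330, 610 and 502 CPM, and day 14 was 1.52 times day 3 (1.35 to 1.72). Lamb1 was at 17.4 CPM (13.0 to 22.8), 56.9 (46.2 to 69.2) and 4.68 (1.72 to 10.2), and 66.7% of its 99 UMIs of day 7 came from 5 cells. Within N4 Lamb1 was low on each day, at 3.44, 3.17 and 3.99 CPM, while it stood at 34.5 and 91.3 CPM in N8 on days 3 and 7. N8 held 42 smooth muscle-like, 15 fibroblast-like and 2 endothelial-like cells.

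Nid2 was at 7.34, 10.9 and 3.90 CPM on days 3, 7 and 14, from 22, 19 and 5 UMIs, and day 14 was 0.357 times day 7 (0.104 to 0.989). None of the remaining genes of smooth muscle-like cells was past 2-fold between these days. Lama5 was at 107 CPM (95.4 to 119), 98.3 (84.1 to 114) and 99.0 (82.5 to 118), and its intervals overlapped on all 3 days, while within N4 day 14 was at 0.681 times day 3 (0.539 to 0.858). Hspg2 was at 610 CPM (582 to 639) and 625 (588 to 663), then at 471 (434 to 510), and within N4 it was at 727, 835 and 463 CPM. Lama4 was at 58.1 CPM (49.8 to 67.4), 62.1 (50.9 to 74.9) and 93.6 (77.6 to 112). Nid1 was at 85.1 CPM (75.0 to 96.2), 92.5 (78.8 to 108) and 49.9 (38.4 to 63.7), while within N4 it stayed between 47.5 and 51.9 CPM. The 12 smooth muscle-like cells of day 0 gave 24 Lama4, 61 Lamb2, 33 Hspg2 and 8 Lama5 UMIs, so that the day 0 level of the class rests on few molecules.

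Endothelial-like cells gave most of their UMIs on days 3 and 7. Hspg2 was at 609 CPM (506 to 727) and 764 (702 to 829), Lama4 at 125 (80.8 to 184) and 164 (136 to 196), and Lama5 at 79.9 (45.7 to 130) and 88.0 (68.0 to 112), with overlap in each. Of the 7 genes with at least 20 UMIs, Lamb2 was 2.72 times (1.46 to 5.60) and Lamb1, with 0 and 40 UMIs, at least 3.56 times higher on day 7 against a floor of 3 UMIs (exact lower limit 2.76), and none was lower. Of 6396 genes tested 16.5% were higher and 7.97% lower. These values rest on few cells: 1 cycling cell of N8 gave 38.8% of the endothelial-like UMIs of day 3, and 5 cells gave 99.2% of its Hspg2 UMIs. From day 7 to day 14, 4 of the 7 genes that passed were lower and none higher, where 17.7% of 5817 genes tested were lower and 14.0% higher. Nid1 was at 0.263 times (0.0709 to 0.681), on 4 UMIs of day 14, and Hspg2 at 0.301 times (0.149 to 0.543), on 11. Lama5 and Lamb1, with 2 and 1 UMIs of day 14, had intervals that held 1. Of the endothelial-like UMIs of day 14, 42.3% came from 1 cell of N6, and the 12 monocyte/macrophage markers summed to 4409 CPM there against 84.9 and 115 CPM on days 3 and 7, and their part in this was not tested.

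Other genes of the basement membrane were read from fixed lists, each with its count past 2-fold. In fibroblast-like cells on day 3, 5 of 8 collagens of the basement membrane were lower than on day 0 and none higher, where 10.8% of all genes tested were lower and 9.15% higher. Col4a3, Col4a4 and Col4a6, chains of the less common collagen IV networks, were at 83.3, 175 and 95.5 CPM on day 0 and at 7.85, 25.2 and 28.4 on day 3. Col4a1 and Col4a2, the chains of the common network, went from 374 and 161 CPM to 131 and 79.0, and on day 14 were at 273 and 162. Against the same shares, of 8 other basement membrane proteins that passed 20 UMIs, 6 were lower, among them Smoc1 (264 to 35.3 CPM), Smoc2 (870 to 203) and Ntn4, a laminin-binding netrin (146 to 47.1), and 1 was higher, the peroxidasin Pxdn that crosslinks collagen IV (27.9 to 83.6). The list medians were -1.27 and -1.66 on the log2 scale, beside -0.11 over all genes tested.

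Of the dystrophin complex, 4 of 7 genes that passed were lower on day 3 and none higher, where 10.8% of all genes tested were lower and 9.15% higher, including Dmd (73.0 to 13.9 CPM) and Sgcd (109 to 26.8). Of 17 genes of heparan sulfate synthesis and editing, 2 were higher, a share near that of all genes, and none lower. Ext1, a polymerase of the chain, went from 48.2 to 245 CPM. Hs6st2 went from 0 to 4.85 CPM, at least 3.59-fold higher against a floor of 3 UMIs, which leaves counting error out. Of the laminin receptors none of the 3 genes that passed was past 2-fold. On day 14, 3 of 10 other basement membrane proteins that passed were higher than on day 0 and 4 lower, with a median of -0.35 beside -0.02 over all genes, where 9.12% of all genes were higher and 4.63% lower. Smoc1, Smoc2, Ntn4 and Egflam were lower, at 52.1, 424, 55.8 and 1.91 CPM. Against the same shares, 2 of 8 collagens were higher, Col4a5 (146 to 299.7 CPM) and Col18a1 (28.8 to 59.9), and 2 lower, Col4a3 and Col4a4, at 15.8 and 44.97 CPM. Of 8 genes of the dystrophin complex 2 were lower, Dmd and Sgcd, at 29.3 and 43.2 CPM, and none higher. Of 17 heparan sulfate genes Ext1 and Hs6st2 were higher and the heparanase Hpse lower (9.91 to 3.14 CPM). Ext1 stood at 124 CPM, Pxdn at 86.2 CPM, Hmcn1 had gone from 2.70 to 27.8 CPM, and Sparc, a collagen-binding matrix protein, from 7134 to 20361 CPM.

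In smooth muscle-like cells from day 3 to day 14, 4 of 8 collagens were higher and none lower, where 6.22% of all genes tested were higher and 10.6% lower: Col4a3 (3.34 to 16.4 CPM), Col4a4 (10.7 to 32.0), Col4a6 (52.7 to 127) and Col18a1 (682 to 1470). Of the 9 genes of the dystrophin complex 2 were higher, Dmd (259 to 808 CPM) and Sgcd (71.1 to 181), and none lower. Of 16 heparan sulfate genes 3 were lower, Hs6st2 (34.7 to 7.02 CPM), the sulfatase Sulf1 (564 to 250) and Glce (20.0 to 9.36). The list medians were 1.02, 0.59 and -0.16, beside -0.06 over all genes tested. Of 9 other basement membrane proteins and 5 laminin receptors that passed, none was past 2-fold.

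**Figure D5:**
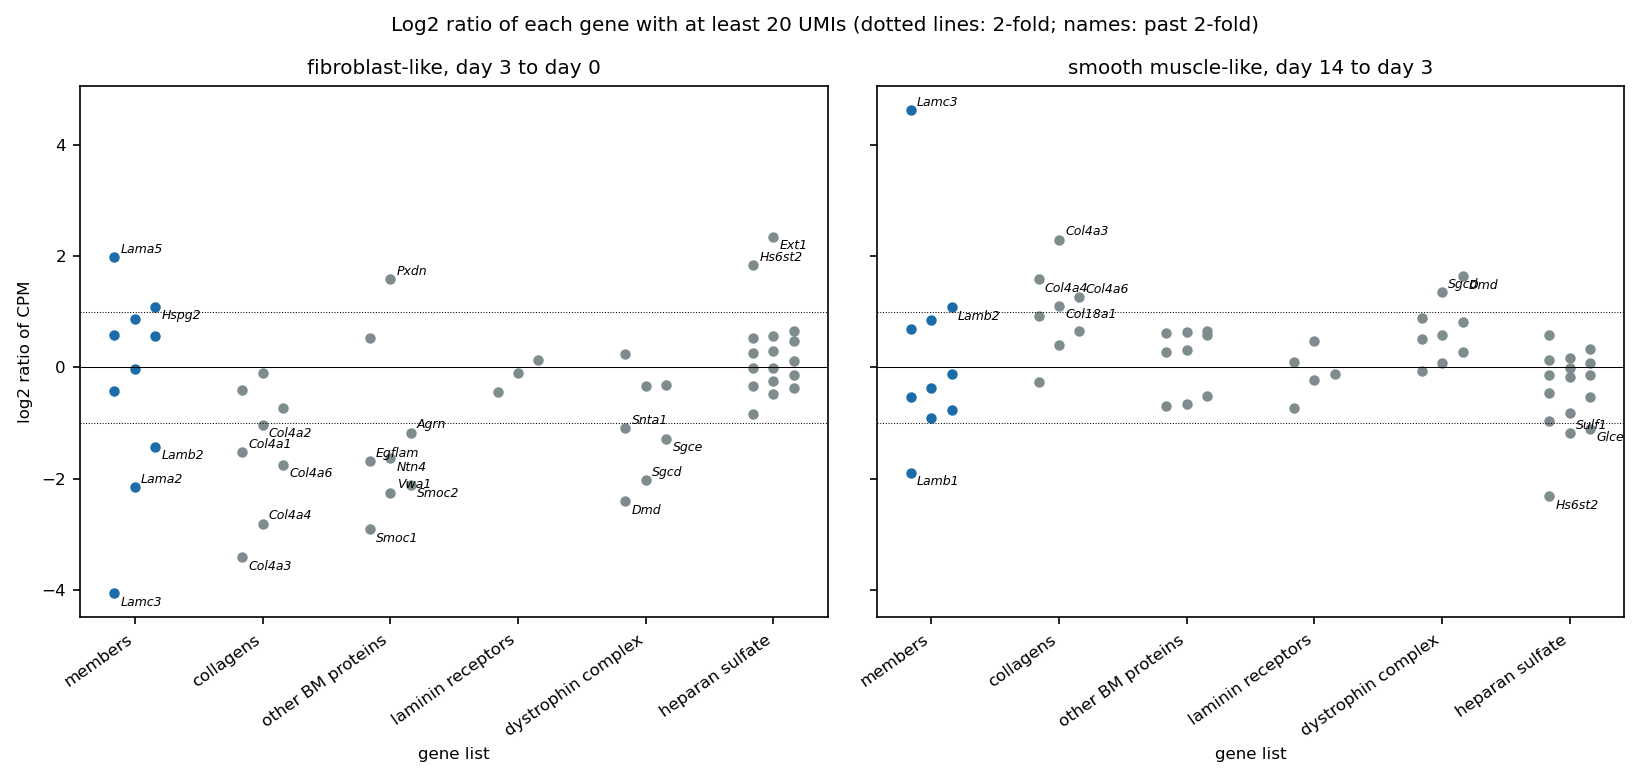
Log2 ratio of CPM for each gene with at least 20 UMIs over both days, for the 10 genes (members) and 5 related lists, in fibroblast-like cells (day 3 to day 0, left) and smooth muscle-like cells (day 14 to day 3, right), with genes past 2-fold named and genes at 0 set to 3 UMIs. Lamc3 and Col4a3 lie at the low end on the left and at the high end on the right.

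The receptors for laminin differed by class. Over all days Itga6 and Itgb4, which pair as a laminin receptor, were at 222 and 202 CPM in endothelial-like cells and at 0.736 and 0.638 CPM in fibroblast-like cells. Itga7, an alpha integrin of muscle, was at 59.5 CPM in smooth muscle-like cells and at most 0.987 CPM in the other vessel wall classes. Bcam was at 330, 237 and 5.25 CPM in smooth muscle-like, endothelial-like and fibroblast-like cells, lowest in the last like its ligand Lama5. Dag1, which encodes dystroglycan, was at 200, 94.7 and 127 CPM.

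The genes most like each of the 10 were sought among 11592 genes over 25 groups of a class and a day. The groups share libraries and differ mostly in class, so that a high r is common among genes of the vessel wall. Lamc3 was most like Col4a3 (r = 0.989), Ntrk2 and Cntn6. Lama5 was most like Sncg (r = 0.976), Shroom3 and Col18a1, Lama4 like Wwtr1 (r = 0.985), Rhoj and Kirrel, and Lama2 like Clec11a (r = 0.985), Gm10600 and L3hypdh. Lamb1 was most like Fst (r = 0.960), Arhgap42 and Rtkn, Lamb2 like Htra1 (r = 0.989), Tmtc1 and Npr2, and Lamc1 like Dcbld2 (r = 0.972), Parva and Nfib. Nid1 was most like Stard13 (r = 0.966), Rhoj and Cpne8, Nid2 like Fam171a2 (r = 0.916), Mmp11 and Fbxl7, and Hspg2 like Tm4sf1 (r = 0.986), Me1 and the heparan sulfate sulfatase Sulf1. Among the 10 genes themselves, Lama4 and Hspg2 were alike at r = 0.968, whereas Lama2 and Lama5 were at r = 0.253.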

How the data were processed

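The deposited values are UMI counts, 1 whole number for each gene and barcode, which the authors obtained with Cell Ranger (3.0.2 per the file headers) from droplet 3' libraries, without normalization. The build given with the samples is a human one, so no coordinates are taken from the files. Barcodes under 200 genes or over 20% mitochondrial UMIs (453) and the highest Scrublet scores (0.8% per 1000 barcodes, 106 barcodes, since Scrublet's own threshold marked 17) were removed, as was the copy with fewer UMIs of a barcode shared by libraries, a step chosen after seeing the data. Libraries were clustered together (scanpy 1.11.5, leidenalg 0.10.2, 2000 variable genes without the 10 genes and the related lists, 30 components, 15 neighbours, resolution 1, sub-clusters at 0.5). The 30 clusters gave 10 classes and 860 unnamed cells. The study's own annotation was not used, and a list of further laminin chains is not reported here. UMIs were summed per class and day as CPM. Genes at 0 UMIs were set to 3. Promoters are those of RefSeq (GRCm38.p6). Named genes are the 10, listed genes past 2-fold with at least 20 UMIs, with others added for levels by class, and the 3 genes most correlated with each, on log2(CPM + 10) over groups of at least 20 cells and 50000 UMIs and genes of at least 200 UMIs. The members and lists were chosen with earlier results of these data known.

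The ratios were tested on simulated counts of fibroblast-like cells, day 14 to day 0: of 197 genes changed 4-fold among 11620, 99.5% were called, 2.11% of the unchanged genes were past 2-fold, and 96.0% of the intervals held the true ratio. The simulated counts varied by counting error alone, the same error that the intervals allow for. They left out UMIs clumped in few cells and spread between animals or libraries, so they cannot show how the ratios fare under those. The libraries held 2672722, 18989081, 27973418 and 13329564 UMIs on days 0, 3, 7 and 14. Groups were the days given by the labels. The alternatives were other resolutions, libraries clustered alone, other filters, thinning, scaling and cell depth, and, added after seeing the data, copies kept and sub-clusters left out.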

Additional observations from a re-analysis of the deposited data

Results flagged for a closer look

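In 9 comparisons the ratio of a gene lay above 1 in fibroblast-like cells and below 1 in smooth muscle-like cells or the reverse, with UMIs on both days and both intervals clear of 1, and whether the classes differ was not tested, since each day is 1 library. From day 3 to day 14 the ratio was 2.00 in fibroblast-like and 0.270 in smooth muscle-like cells for Lamb1 and 2.79 and 0.586 for Nid1. From day 7 to day 14 it was 1.20 and 0.0822 for Lamb1, 2.11 and 0.539 for Nid1, and 1.32 and 0.357 for Nid2. Against day 0, with 12 smooth muscle-like cells, it was 1.82 and 0.241 for Lama4 on day 3, 2.39 and 0.257 on day 7 and 2.21 and 0.388 on day 14, and 0.745 and 4.24 for Nid1 on day 3. Within sub-cluster N4, day 14 was 1.16 times day 3 (0.267 to 5.03) for Lamb1, on 5 UMIs each day. For Nid1 it was 1.09 times (0.765 to 1.55), so the smooth muscle-like ratios below 1 of these genes were not seen there.

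Cells left unnamed were used in no comparison, and some held UMIs of the 10 genes above the limit that 0 UMIs allow. A cluster led by Snhg9 and Gm47283, with 342 cells of which 339 were of day 7 and a median of 749.5 UMIs, held Lama5 at 89.7, Lamb2 at 111, Lamc1 at 136, Nid1 at 118 and Hspg2 at 326 CPM. Lamc1 was at 19.9 CPM in a cluster led by Ccl6 and F13a1, at 20.8 in one led by Pf4 and Stab1 and at 47.8 in one led by Mmp12.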

How the results depend on the processing

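Of 70 medians over the 10 genes under alternatives, 50 stayed within a limit set from the widths of the genes' own ratio intervals. No interval of a median was computed, and a change of sign could stay within that limit, as from -0.24 to 0.10 below. From day 0 to day 3 in fibroblast-like cells the median log2 ratio of 0.27 became -0.83 with each library clustered alone, -0.87 without doublet removal, -0.19 as the mean of the CPM of each cell, -0.04 with cells thinned to 2000 UMIs and -0.46 without cells of over 30000 UMIs. The day 7 median of 0.65 became -0.39, -0.28, 0.84 and 0.39 under the first 4 of these and 0.34 without the Saa3-led and Spp1-led sub-clusters. The day 14 median of 0.85 became 0.33 with libraries clustered alone, 0.16 without doublet removal and 1.08 with at least 500 genes and at most 10% mitochondrial UMIs. From day 7 to day 14 the 0.30 became 0.15 at resolution 1.5, 0.11 as a mean over cells and -0.09 without cells of over 30000 UMIs. In smooth muscle-like cells from day 3 to day 14 the -0.24 became 0.49 with the stricter filter, 0.19 without cells of over 30000 UMIs, 0.10 as a mean over cells, 0.29 without the Spp1-led sub-cluster and 0.29 without it and the Saa3-led one. Of 288 values of genes past 2-fold, 283 kept their direction, though not all stayed past 2-fold: Lamc3 from day 7 to day 14 did so in 5 of 13 alternatives, Lamb2 from day 3 to day 14 in smooth muscle-like cells in 9 of 14, Lamb2 on day 3 and Lama2 on day 7 in 10 of 14 each, Lama4 on days 7 and 14 in 11 and 12 of 14 (down to 0.10 and 0.33), Lama5 on day 14 in 11 of 13 (down to 0.34) and Nid1 on day 14 in 12 of 14 (down to 0.16). Those that turned were Lama5 from day 0 to day 3 (-0.35, libraries clustered alone, 1.98 as reported), Lamc3 from day 7 to day 14 (-4.42 with libraries clustered alone and -0.05 without cells of over 30000 UMIs, 1.05 as reported) and Lama5 from day 7 to day 14 (2.06 with the 10 genes and related genes among the variable genes and 3.16 with the stricter filter, -1.19 as reported). Lamb1 from day 3 to day 14 in smooth muscle-like cells stayed past 2-fold in 9 of 10 alternatives (weakest -0.75). In fibroblast-like cells, Nid1 from day 7 to day 14 did so in 12 of 14 (weakest 0.95). On day 3, Hspg2 and Lamc3 did so in 13 of 14 each (weakest 0.99 and -0.22). The cause of these changes was not tested. Day 0 had 33 and 28 fibroblast-like cells with libraries clustered alone and without doublet removal. No paired analysis was possible because each day is 1 library, and no replicate could be left out. Endothelial-like cells and day 0 smooth muscle-like cells are limited by depth.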
